A study of Mus musculus with 2 samples.

Results

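The heat shock and unfolded protein response genes are a set of 39 genes taken from a fixed list of symbols. A gene entered if the array's annotation had a probe set naming it and no other gene. This gave 37 genes with 91 probe sets, of 18193 such genes with 34945 probe sets on the array. Hsp90ab1 and Hsf1 were not analysed here. By role, 14 are chaperones and folding enzymes of the endoplasmic reticulum (ER), 13 are sensors, transcription factors and degradation components of the unfolded protein response (UPR), 8 are cytosolic heat shock proteins or their cofactors, and 2 form the mitochondrial chaperonin. A gene counted as measured if its brightest probe set had a geometric mean signal of at least 30.8, the midpoint of the array's probe sets apart from controls. All 37 genes with a probe set met this, as did 11364 genes in all, and so did 77 of their 91 probe sets.

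The samples were ovaries from wild type mice of the CD-1 stock, 24 to 28 days old. Both groups were given 5 IU of PMSG, a gonadotropin from mare serum that grows follicles, and 48 h later 5 IU of hCG, the human chorionic gonadotropin that sets off ovulation. At 2 h after hCG, the vehicle group received oil and the other group received ulipristal acetate (also called CDB in the labels), a selective modulator of the progesterone receptor whose dose the labels do not give. Ovaries were taken at 11 h, and the labels do not say from which injection this was counted. Each group had 1 Affymetrix Mouse Genome 430 2.0 array, and the number of mice behind each is not stated. There is therefore no spread between samples, no standard deviation and no test, and every difference is one between these 2 arrays. A log2 ratio is ulipristal over vehicle, so a value below 0 is a lower signal with ulipristal. In whole ovaries, fewer cells of a type and less RNA per cell cannot be told apart.

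Proteins that enter the ER fold with the help of chaperones, and misfolded ones are sent back to the cytosol for destruction. When unfolded proteins build up, 3 sensors in the ER membrane, the products of Ern1 (IRE1), Eif2ak3 (PERK) and Atf6, raise chaperone synthesis, slow translation and increase disposal. The cytosol has a separate program, in which heat shock factor 1 induces the HSP70, HSP90 and J domain chaperones. Ovulating follicles make large amounts of secreted matrix, hormones and proteases, all of which pass through the ER, and HSP90 with its cofactors holds steroid receptors ready to bind hormone.

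Most of these genes had slightly lower signals on the ulipristal array, and none differed much. Of the 37 members, 31 had a log2 ratio below 0 and 6 above, and the median was -0.24, which is 1.18-fold lower. None was 2-fold lower or higher, against 1.56% of all measured genes lower and 3.34% higher. None was 1.5-fold lower or higher either, against 4.58% and 12.3%. At 1.25-fold, a value chosen after the ratios were seen, 13 were lower and 0 higher, against 12.4% and 27.8% of all measured genes. With 1 array a group, these are counts past a fold, not test results. The member ratios ran from -0.58 for Hspa5 to 0.25 for Atf6.

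The share of genes below 0 depends on brightness, and the members are bright. Among all measured genes 40.0% had a ratio below 0, with a median of 0.09. Of the members, 29 lay among the brightest 25% of measured genes, at a signal of 505 or more. Of these 2841 bright genes 60.3% were below 0 and the median was -0.07, while 25 of the 29 bright members were below 0, with a median of -0.24. None of the 29 was 2-fold lower or higher (2.04% and 0.634% of bright genes) or 1.5-fold lower or higher (5.46% and 2.92%). At 1.25-fold, 11 of the 29 were lower and 0 higher, against 16.6% and 10.2% of bright genes. The 8 dimmer members had a median of -0.22 with 6 below 0, against 33.3% and a median of 0.16 for the other measured genes under that signal. The members thus had lower medians than the measured genes of both ranges. Each range is wide, so brightness was matched only roughly. With lowess centring, which removes the slope of the ratio with signal, the members' median was -0.16. That of all measured genes was then 0.04, and that of bright genes -0.01.

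**Figure D1:**
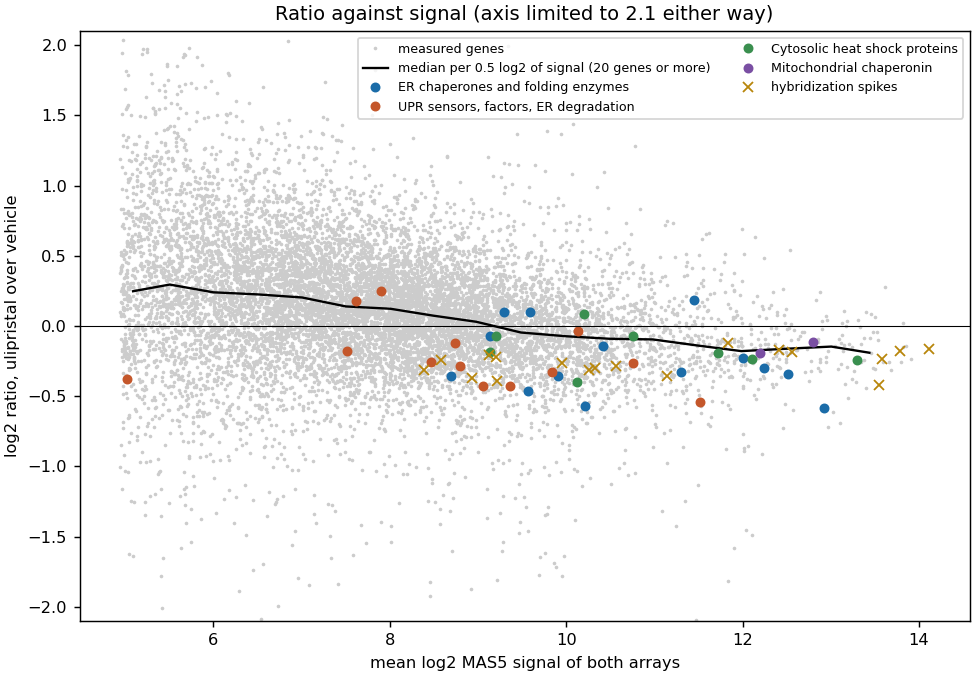
Each grey point is a measured gene, with the mean log2 signal of both arrays on the x axis and the log2 ratio of ulipristal over vehicle on the y axis, the black line is the median ratio by signal, and coloured points are the 37 members by class. The line falls from above 0 for dim genes to below 0 for bright genes, most members lie below it, and the 18 hybridization spikes (crosses) all lie below 0.

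Control features were mostly lower too. The arrays had the same trimmed mean of 150.001. Hybridization spikes, bacterial and phage transcripts added to the labelled material, were lower on the ulipristal array for 18 of 18 probe sets, with a median of -0.25 and a range of -0.42 to -0.12. Poly-A spikes, added to the RNA before labelling, had a median of -0.58, with 22 of 24 below 0. The 3 probe sets of 18S ribosomal RNA were all below 0, with a median of -1.27. The ratio of 3' to 5' signal, which rises as RNA is degraded or copied incompletely, was 1.20 with vehicle and 0.87 with ulipristal for Gapdh, and 2.40 and 1.87 for actin. The median of the members lay close to that of the hybridization spikes and above those of the poly-A spikes and 18S ribosomal RNA. The part of these differences in the member ratios was not tested.

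Signals of cell type markers also differed, unevenly within a type. Marker counts cover genes with a probe set naming only them, which Insl3, also listed for theca cells, lacked. All such markers of granulosa cells (9), theca and luteinizing cells (6) and oocytes (7) were measured, as an ovary should show. Of the granulosa markers, 5 of 9 were at least 2-fold higher with ulipristal and 0 lower, with summed signals of 12448 and 16773. Inhbb was at 1.44 on the log2 scale, and Amh at -0.69. Of 7 oviduct markers, 6 were measured and 5 were at least 2-fold higher, with summed signals of 3834 and 6163. Most of that sum was Ovgp1 (3641 and 5642), which was not 2-fold higher (log2 ratio 0.63). The 5 that were read only 19.1 to 57.5 with vehicle. Theca and luteal markers summed to 32638 and 33693, oocyte markers to 1428 and 1568, macrophage markers to 1436 and 1605, endothelial markers to 1007 and 1165, and fat markers to 1832 and 2588. At least 2-fold higher were 1 of 6 theca and luteal, 0 of 7 oocyte and 1 of 7 macrophage markers. So were 2 of 6 endothelial and 1 of 3 measured fat markers, and 0 in these types were 2-fold lower. Of all measured genes, 3.34% were 2-fold higher and 1.56% lower, and of bright genes 0.634% and 2.04%. Neutrophil markers went both ways: S100a8 and S100a9 were over 2-fold lower (log2 ratios -1.46 and -1.89), Ltf was over 2-fold higher (1.45), and Mmp9 and Camp were not measured. The 5 neutrophil markers summed to 481 and 319. Among plasma cell and lymphocyte markers only Sdc1, which epithelial cells also make, was measured, at 4013 and 2498, and Cd3e was below the floor of 7.17 on both arrays. The part of these marker differences in the member ratios was not tested.

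**Figure D2:**
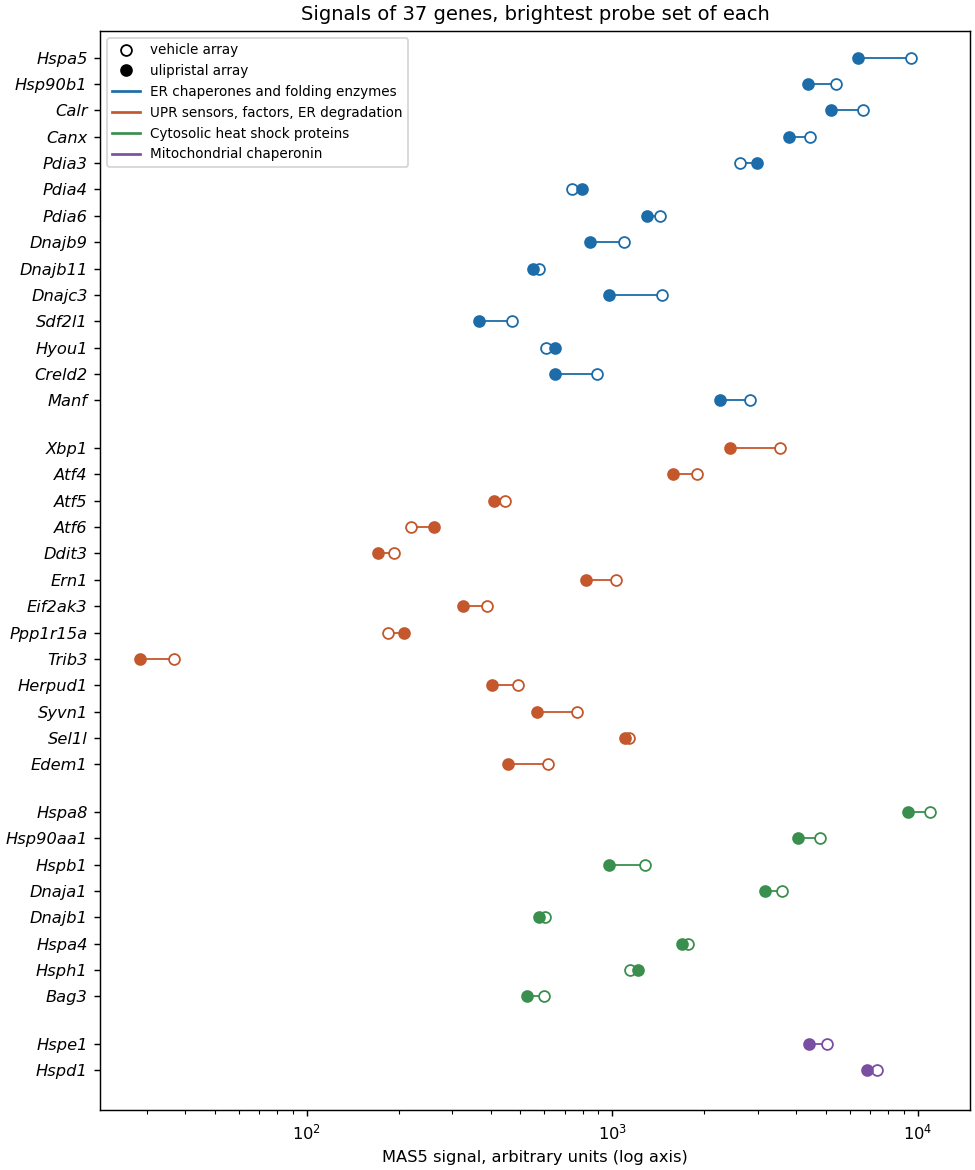
The MAS5 signal in arbitrary units (x axis, log scale) of the brightest probe set of each of 37 genes, with vehicle as open and ulipristal as filled circles, coloured by class. The filled circle lies to the left of the open circle for 31 genes and to the right for Pdia3, Pdia4, Hyou1, Atf6, Ppp1r15a and Hsph1.

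The ER chaperones had the lowest class median, -0.31, with 11 of 14 below 0. Many chaperone genes of the ER carry the ER stress element in their promoter, which ATF6 with NF-Y binds. It was searched as CCAAT, 9 bases of any kind, then CCACG, on both strands, in RefSeq windows (GRCm38.p6) from 250 bases before to 50 after each annotated start. Windows were found for 32 of the 39 listed genes, 12 of them ER chaperones. The element was in 7 of these 12 genes, and in 0.119% of all 32851 windows of this length. A second form, ATTGG, 1 base, CCACG, was in Dnajb11 and in 0.0365% of all windows. The core TGACGTGG of the unfolded protein response element was in no member's window and in 0.676% of all windows. A match describes letters and was not tested as a site. The windows with the element are shown because they mark the chaperones that share it. They run 5′ to 3′ on the gene's strand, whole for Hspa5 and Hsp90b1 and otherwise with 30 bases to each side, and capitals mark the fixed letters of the element, which read CGTGG and ATTGG where it lies on the opposite strand.
Hspa5, chr2:34771840-34772139, plus strand: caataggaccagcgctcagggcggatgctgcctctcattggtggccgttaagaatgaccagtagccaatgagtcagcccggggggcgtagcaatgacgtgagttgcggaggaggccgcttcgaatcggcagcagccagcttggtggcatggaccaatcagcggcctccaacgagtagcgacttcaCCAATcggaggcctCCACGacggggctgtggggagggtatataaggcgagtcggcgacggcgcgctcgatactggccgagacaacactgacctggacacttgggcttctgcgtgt
Hsp90b1, chr10:86705395-86705694, minus strand: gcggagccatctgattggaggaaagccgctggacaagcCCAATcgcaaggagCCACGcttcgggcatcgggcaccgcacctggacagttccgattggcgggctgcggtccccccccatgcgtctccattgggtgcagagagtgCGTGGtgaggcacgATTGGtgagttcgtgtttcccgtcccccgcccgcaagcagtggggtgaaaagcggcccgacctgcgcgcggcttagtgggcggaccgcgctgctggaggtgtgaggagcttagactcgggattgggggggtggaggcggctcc
Calr, chr8:84847045-84847123, minus strand: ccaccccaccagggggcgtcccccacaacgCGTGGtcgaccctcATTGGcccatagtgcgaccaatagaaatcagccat
Canx, chr11:50325770-50325848, minus strand: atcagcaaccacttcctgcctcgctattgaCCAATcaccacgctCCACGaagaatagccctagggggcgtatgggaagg
Pdia6, chr12:17266461-17266539, plus strand: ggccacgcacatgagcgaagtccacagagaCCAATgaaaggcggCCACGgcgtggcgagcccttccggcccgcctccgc
Dnajc3, chr14:118937797-118937875, plus strand: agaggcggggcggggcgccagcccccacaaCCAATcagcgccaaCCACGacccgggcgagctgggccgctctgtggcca
Creld2, chr15:88819490-88819568, plus strand: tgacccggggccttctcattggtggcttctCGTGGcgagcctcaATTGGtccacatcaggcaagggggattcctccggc

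Hspa5 encodes BiP, the HSP70 of the ER lumen that holds the UPR sensors inactive, and it had the lowest ratio of all members as the values were deposited. Its brightest probe set read 9533 with vehicle and 6371 with ulipristal, a log2 ratio of -0.58 that falls just short of 1.5-fold. The other probe sets read 3717 and 2846, and 378 and 197, so that all 3 were lower, with log2 ratios from -0.94 to -0.39. A ratio this low was found in 4.61% of all measured genes and in 5.49% of bright genes. With lowess centring Hspa5 was at -0.41, and Dnajc3 (-0.51), Trib3, Edem1, Creld2 and Xbp1 were lower. The element in its window starts 65 bases before the annotated start.

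Dnajc3 (P58IPK), a J domain cochaperone that also inhibits PERK, came next with -0.57, from 1450.4 to 976. Its 5 measured probe sets did not agree: the brightest 4 gave -0.57, -0.47, -0.27 and 0.01, and the dimmest, at 54.2 and 86.5, gave 0.67. Creld2, a secreted ER stress protein, read 891 and 648, a log2 ratio of -0.46. It has a single probe set, so there was no second reading to set beside it.

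Hsp90b1 (GRP94), the HSP90 of the ER, was lower on both probe sets, with signals of 5398 and 4379 (log2 ratio -0.30) and of 3036 and 2222 (-0.45). Its window held the element at 2 places, 212 and 107 bases before the start, the second on the opposite strand. The lectin chaperones Calr and Canx, which hold glycoproteins until they fold, were lower on their brightest probe sets but not on every other. Calr read 6601 and 5210 (-0.34) on the brightest, but its other probe sets gave 0.26 and 0.18. Canx read 4436 and 3791 (-0.23), and its others gave 0.34 and -0.17. For Calr and Canx the probe sets therefore did not settle a direction.

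Among the J domain proteins that work with BiP, Dnajb9 (ERdj4), which keeps IRE1 in check, read 1089 and 849 (-0.36), and Dnajb11 (ERdj3) read 577 and 550.2 (-0.07). Dnajb11 holds the second form of the element, just after the annotated start.
Dnajb11, chr16:22857822-22857892, plus strand: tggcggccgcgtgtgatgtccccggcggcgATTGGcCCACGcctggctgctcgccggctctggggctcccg

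Sdf2l1, a partner of BiP and ERdj3, read 469 and 366 (-0.36). Manf, a secreted factor that binds BiP, read 2830 and 2259 (-0.33). With Creld2, all 3 of these small ER stress proteins were lower, at a median of -0.36, each on a single probe set.

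Of the 3 protein disulfide isomerases, which form and shuffle disulfide bonds, 2 were higher and 1 lower. Pdia3 (ERp57) read 2620 and 2976, 1.14-fold higher, with a dim probe set at -0.28, and its sign turned (-0.05) when its probe sets were summarised by their median. Pdia4 (ERp72) read 741 and 795 (0.10), and Pdia6 (P5) read 1437 and 1301 (-0.14). Hyou1 (GRP170), which exchanges nucleotide on BiP, was also higher, at 606 and 649 (0.10), and its second measured probe set gave 0.79 at signals of 109 and 188. Pdia3, Pdia4 and Hyou1 were the ER chaperones above 0.

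The UPR sensors, factors and degradation genes had a median of -0.26, with 11 of 13 below 0. Xbp1, whose message IRE1 splices into the code for an active transcription factor, had the lowest ratio of the class as the values were deposited. Its 4 probe sets read 3537 and 2426, 2325 and 1846, 933 and 577, and 68.6 and 42.6. All 4 were lower with ulipristal, with log2 ratios of -0.54, -0.33, -0.69 and -0.69. With lowess centring Xbp1 was at -0.43, and Trib3 (-0.50) and Edem1 (-0.44) were lower. Spliced and unspliced Xbp1 messages were not told apart here. A ratio at or below -0.54 was found in 5.31% of measured genes and 6.44% of bright genes.

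Of the 3 sensors, Ern1 (IRE1) read 1029 and 821 (-0.33), Eif2ak3 (PERK) read 388 and 324 (-0.26), and Atf6 read 219 and 260.3 (0.25). The other Atf6 probe sets gave -0.34 and -0.09, so the sign for Atf6 rests on the probe set chosen. The second measured probe set of Ern1 gave -0.09, and the other 2 of Eif2ak3 were below the floor on both arrays.

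The PERK arm acts through Atf4, a transcription factor translated when translation at large is slowed. Atf4 read 1901 and 1586 (-0.26), and its second measured probe set read 848 and 471 (-0.85). Ddit3 (CHOP), which ATF4 induces and which promotes cell death, read 194 and 172 (-0.18), with a second probe set also at -0.18. Atf5, a related factor, read 446 and 409 (-0.12). Xbp1, Atf4, Atf5 and Ddit3 were thus lower on every measured probe set, by a median of -0.22 over the brightest ones. Atf6, whose product also binds promoters, was counted with the sensors and gave 0.25 on its brightest probe set. The feedback genes went both ways. Ppp1r15a (GADD34), which restores translation, read 184 and 208 (0.18), and Trib3, a pseudokinase induced by CHOP, read 36.9 and 28.4 (-0.38), just above the filter. A second Trib3 probe set, under the filter, read 35.4 and 15.4 (-1.20).

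The genes of ER-associated degradation had a median of -0.36, and all 4 were below 0. Syvn1 (HRD1), the ubiquitin ligase of the pathway, read 765 and 568 (-0.43), with a second probe set at -0.11. Edem1, a lectin that picks out misfolded glycoproteins, read 615 and 457 (-0.43), with a second at -0.24. Herpud1, a membrane partner of HRD1, read 492 and 404 (-0.28), with a second at -0.08. Sel1l, the adaptor of HRD1, read 1135 and 1105 (-0.04), while its other 3 measured probe sets gave 0.22, 0.30 and 0.49. Syvn1 holds an ER stress element and Herpud1 the second form, and they are shown as the members of this class that share it with the chaperones.
Syvn1, chr19:6046502-6046580, plus strand: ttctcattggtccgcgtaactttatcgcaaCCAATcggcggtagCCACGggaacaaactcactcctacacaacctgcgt
Herpud1, chr8:94386347-94386417, plus strand: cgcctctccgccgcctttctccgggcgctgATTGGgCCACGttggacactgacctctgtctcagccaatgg

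Members with either form of the element were compared with the rest as a description. On their brightest probe sets all 10 had a ratio below 0, with a median of -0.32 and a range of -0.58 to -0.07. Calr, Canx and Dnajc3 also had probe sets above 0. The 14 ER and UPR members with a window and neither form had 11 below 0 and a median of -0.26. The ranges overlapped, since Xbp1, without the element, was at -0.54. Brightness was not matched. Of the 10, only Herpud1 lay outside the brightest 25%, and of the 14, Sdf2l1, Atf5, Ddit3, Eif2ak3, Ppp1r15a and Trib3 did. The core TGATGNAA, part of the sequence that ATF4 binds, was in the windows of Herpud1 and Trib3 and in 3.97% of all windows.

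**Figure D3:**
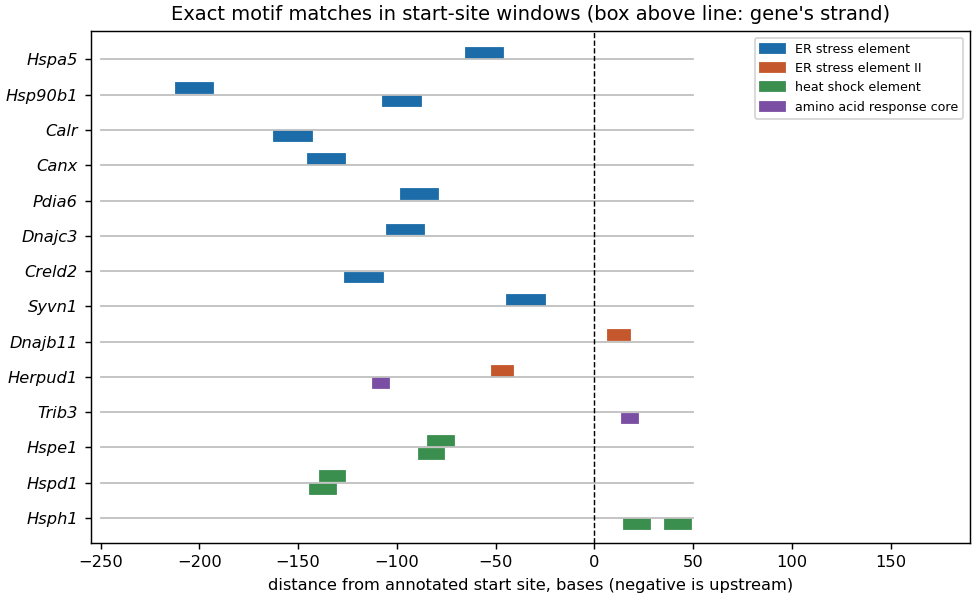
Each line is a gene's window, with the distance from the annotated start site in bases on the x axis, and boxes are exact motif matches, above the line on the gene's strand and below it on the opposite strand. The ER stress elements of the 8 genes that hold one begin between 212 and 44 bases upstream, and the boxes of Hsph1 are 1 match seen from 2 annotated starts.

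**Figure D4:**
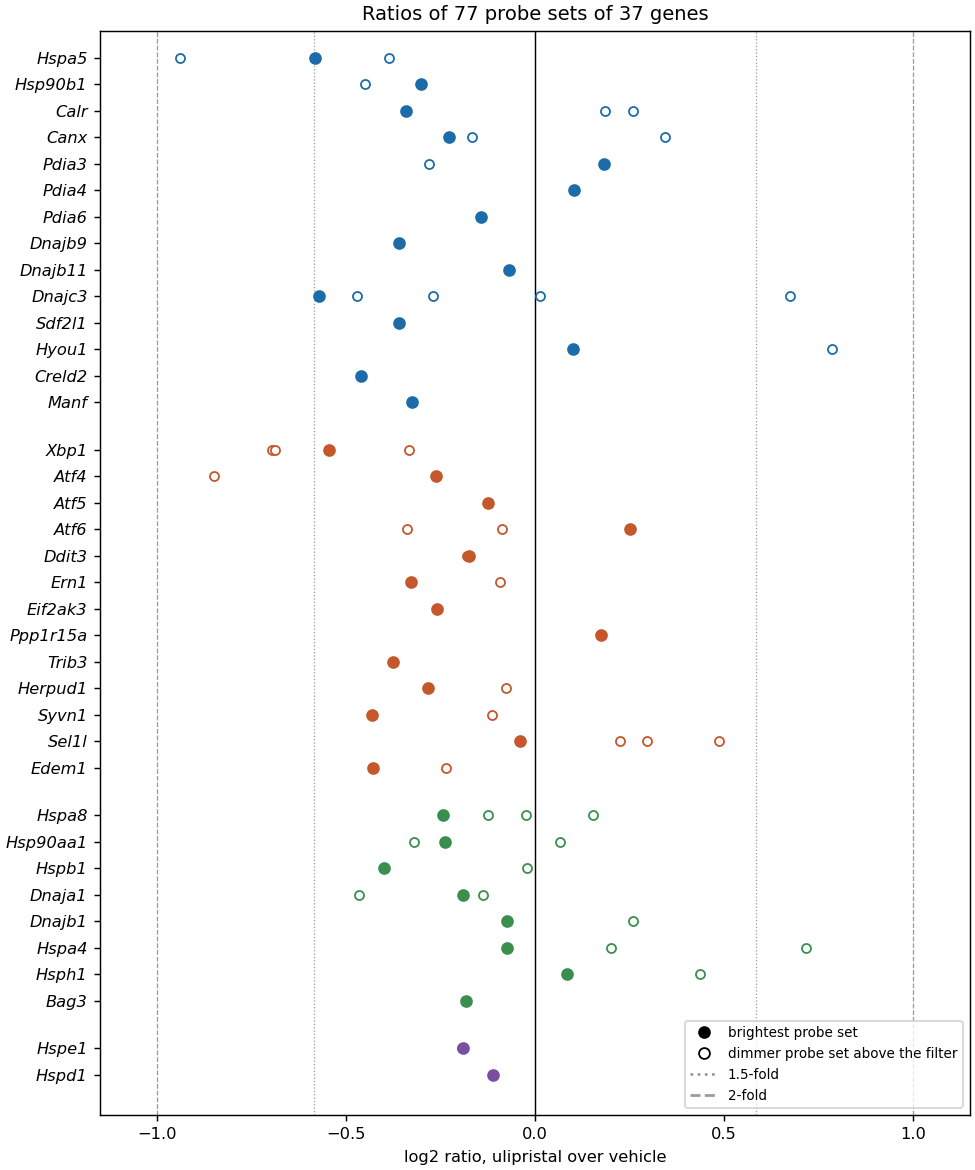
The log2 ratio of ulipristal over vehicle (x axis) of each of the 77 measured probe sets of 37 genes, with the brightest probe set of a gene filled and the others open, and lines at 1.5-fold and 2-fold. All probe sets of Hspa5 and Xbp1 lie below 0, those of Dnajc3, Calr, Canx and Sel1l lie on both sides, and none reaches 2-fold.

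The cytosolic heat shock genes had a median of -0.19, with 7 of 8 below 0. Hspa8 (HSC70), the constitutive HSP70, read 10976 and 9268 on its brightest probe set (-0.24), and its other 3 gave -0.13, 0.15 and -0.02. Hsp90aa1, the inducible HSP90, read 4776 and 4051 (-0.24), and its other 2 measured probe sets gave -0.32 and 0.07. Hspb1 (HSP25), a small heat shock protein that binds actin and unfolded clients, had the lowest ratio of the class. It read 1283 and 972 (-0.40), with a second probe set at -0.02. In these genes the brightest reading was lower and at least 1 other lay near 0.

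Dnaja1, a J domain partner of HSC70, was lower on all 3 probe sets, with 3604 and 3160.0 on the brightest (-0.19) and -0.14 and -0.47 on the others. Bag3, which couples HSP70 to autophagy, read 598 and 527 (-0.18) on its single probe set. Dnajb1 (HSP40) read 604 and 574 (-0.07), with a second probe set at 0.26. The HSP110 genes, which exchange nucleotide on HSP70, gave mixed or higher readings. Hspa4 read 1773 and 1686 (-0.07), but its other measured probe sets gave 0.20 and 0.72. Hsph1 (HSP105) read 1142 and 1211 (0.08) and 491 and 664 (0.44), so both of its readings were higher with ulipristal.

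The heat shock element, to which HSF1 binds, was searched as 3 blocks, GAA, TTC and GAA, each 2 bases apart, on both strands. It was in 0.603% of all windows. Of the members it was in Hsph1, just after the start, and in Hspe1 and Hspd1. Hsph1 is shown as the cytosolic member that holds it, with the blocks in capitals as they read on the gene's strand.
Hsph1, chr5:149636266-149636330, minus strand: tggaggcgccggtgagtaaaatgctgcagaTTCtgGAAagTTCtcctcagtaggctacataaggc

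The mitochondrial chaperonin genes Hspd1 (HSP60), the barrel, and Hspe1 (HSP10), its lid, lie head to head and share a promoter. Hspd1 read 7380 and 6831 (-0.11). Hspe1 read 5035 and 4408 on one probe set and 2099 and 1837 on the other, a log2 ratio of -0.19 on each. Both genes were thus lower by less than 0.2. Their windows held the same overlapping heat shock elements, which read as 4 alternating blocks and are shown because they lie between both genes.
Hspe1 (shared with Hspd1), chr1:55088029-55088106, plus strand: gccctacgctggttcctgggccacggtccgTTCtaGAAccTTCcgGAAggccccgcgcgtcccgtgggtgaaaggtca

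Across the set, 24 members had more than 1 measured probe set, and 14 of these had all of them on one side of 0, 12 lower and 2 (Hyou1 and Hsph1) higher. The other 10 were mixed. The spread between measured probe sets of a member was 0.29 on the log2 scale (pooled SD), and it covers probe sets of the same array, not animals. The dimmer measured probe sets of these 24 members had a median of -0.10, with 25 of 40 below 0, and their brightest ones a median of -0.24. Over all genes with several measured probe sets, these medians were 0.04 and 0.01.

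Other genes of these pathways came from lists chosen by role. Each list's median lay closer to that of all measured genes (0.09) than the members' median (-0.24) did. Of all measured genes, 40.0% were below 0, and of bright genes 60.3%. At 1.5-fold, 4.58% of all measured genes were lower and 12.3% higher. At 2-fold, the shares were 1.56% lower and 3.34% higher. Among 52 measured genes for ER import, folding, export and degradation, 29 were below 0, with a median of -0.07, and 2 were 1.5-fold lower and 2 higher. The lowest were Creb3, an ER membrane transcription factor, at 870 and 546 (1.59-fold lower), with 3 probe sets all lower, Hspa13, a microsomal HSP70 relative, at 933 and 621 (log2 ratio -0.59), with 4 probe sets all lower, and Selenos, which acts in ER disposal, at 1947 and 1416. The highest were Sil1, a nucleotide exchange factor of BiP, at 127 and 215 (1.69-fold higher), Derl3, of the Derlin family of ER disposal, at 101 and 166 (1.64-fold higher), and Dad1, a subunit of the glycosylation complex, at 1808 and 2249, whose second probe set gave -0.25.

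Among 33 measured genes of the eIF2 alpha and ATF4 response, 21 were below 0 and the median was -0.15. This was nearer the members' median (-0.24) than that of all measured genes (0.09). With lowess centring it was -0.19, against -0.16 for the members. Atf3, a stress-induced transcription factor, was the single gene past 2-fold, at 70.1 and 29.3, 2.39-fold lower. Its signal was dim, and with 50 added to every signal its log2 ratio was -0.60 in place of -1.26. Eif4ebp1, which restrains translation, read 1214 and 744 (1.63-fold lower), but its other probe sets gave 0.04 and -0.31. Ppp1r15b, the constitutively expressed paralog of Ppp1r15a, read 966 and 717. The highest were the amino acid enzymes Cth (115 and 193, 1.67-fold higher) and Shmt2 (199 and 299, log2 ratio 0.59), and Wars, a transfer RNA synthetase (126 and 178). The core TGATGNAA was in 10 of 30 of these genes with a window, against 3.97% of all windows. On the gene's strand alone it was in 3 of the 30, against 2.12% of all windows.

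Among 41 measured cytosolic chaperones and cochaperones outside the set, 22 were below 0 and the median was -0.04. Hspb7, a small heat shock protein, was 1.56-fold lower at dim signals of 71.4 and 45.8. Cct4, a subunit of the cytosolic chaperonin, read 3730.0 and 2762, with all 6 probe sets lower. Hspa1b, a stress-induced HSP70, read 1138 and 863, but its other probe sets gave 0.15 and 0.12, and its probes may also bind its near-identical copy Hspa1a. The highest were Hspb2 (62.1 and 114, 1.84-fold higher), Fkbp4, a cofactor of HSP90 in steroid receptor complexes (430.1 and 669, 1.56-fold higher, with a second probe set at 0.42), and Dnaja4 (428 and 627).

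Among 23 measured mitochondrial chaperones, import factors and proteases, 8 were below 0 and the median was 0.18. The lowest were Tomm20, an import receptor, at 5448 and 3801 (5 of 6 probe sets lower), Clpp, a protease subunit, at 560.5 and 416 (its other probe set gave 0.16), and Hspa9, the mitochondrial HSP70, at 1684 and 1358 with all 3 probe sets lower. The highest were Spg7 (109.8 and 183), Tomm40 (298 and 433) and Oma1 (175 and 246), each 1.40-fold to 1.67-fold higher.

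The order of the classes depended on how the arrays were made comparable. With lowess centring, which removes the slope of the ratio with signal, the median was -0.29 for the UPR genes, -0.17 for the ER chaperones, -0.07 for the cytosolic genes and 0.00 for the mitochondrial pair, against -0.01 for bright genes. The UPR genes were then the lowest class. The members below 0 numbered 28 of 37 in that setting.

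**Figure D5:**
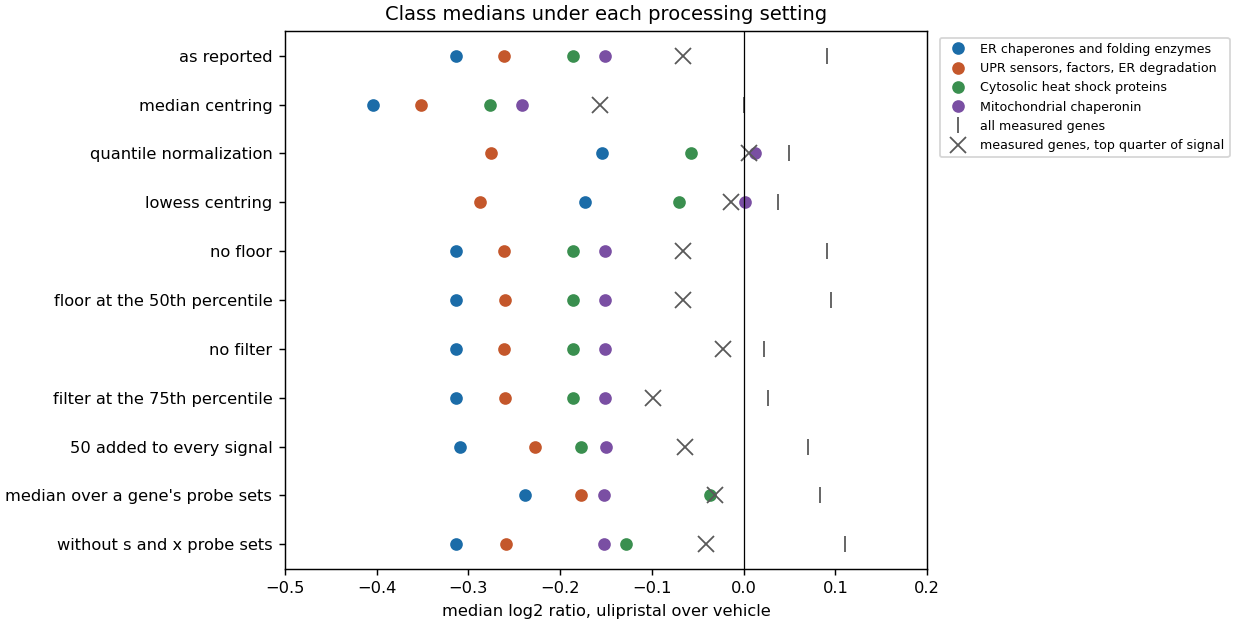
The median log2 ratio of ulipristal over vehicle (x axis) of each member class under the reported setting and 10 others (rows), with the medians of all measured genes and of the brightest 25%. The ER and UPR medians lie below 0 and below both gene medians in every row, while the mitochondrial median is at 0.01 or 0.00 after quantile normalization and lowess centring.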

How the data were processed

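Total RNA of whole ovaries (100 ng per sample) was labelled with biotin, per the labels' protocols, for Affymetrix Mouse Genome 430 2.0 arrays. The values the authors deposited are intensities, linear and not logged, 1 per probe set and array. MAS5 signals came from Affymetrix Expression Console, version 1, per the submitters' processing notes. The equal trimmed means (2% left out at each end) show a global scaling, which hides any shift shared by most genes. No build was needed for the array values. Precision is limited by the number of arrays, 1 per group, and replicates could not be compared.

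From these values, signals under 7.17 (the 25th percentile) were raised to it and log2 was taken. A gene was read from its brightest probe set naming only that gene. Symbols came from the platform annotation, and 37 of 37 members had the same symbol in the RefSeq gene table. The members, lists, thresholds and motifs were chosen with earlier results of these data known. Named genes are all members and, of each other list, the 3 highest and 3 lowest ratios and any past 2-fold. The alternatives were 3 scalings, 2 floors, 2 filters, a pseudocount of 50 and 2 ways to choose probe sets; comparing protein sequences was planned and not run. Ratios were tested on simulated data with known folds. The folds set there were larger than any member ratio here, so recovery of shifts this small was not tested. The work used pandas 2.3.3 and numpy 2.4.6 under Python 3.11.15, with lowess from statsmodels 0.14.6 and figures from matplotlib 3.10.9.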

Additional observations from a re-analysis of the deposited data

How the results depend on the processing

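No paired analysis was possible because each group has 1 array. No member reached 2-fold under any of 10 alternatives, and 22 of the 31 members below 0 were so in each one that measured them (8 of 10 for Trib3), among them Hspa5, Xbp1, Hsp90b1 and Edem1. At 1.25-fold, added after seeing the data, 13 members were past the threshold. The members' median, -0.24, was -0.33 with median centring, -0.14 with quantile normalization and -0.16 with lowess centring. Members at least 1.5-fold lower numbered 3 with median centring (Hspa5, Dnajc3 and Xbp1) and 2 (Xbp1 and Trib3) when a gene's probe sets were summarised by their median, and 1 (Hyou1) was 1.5-fold higher without s and x probe sets, which can bind several transcripts. The ER chaperone median was -0.15 with quantile normalization and -0.17 with lowess centring. The cytosolic median was -0.0370, with 4 of 8 below 0, with the median over probe sets. That setting took in all probe sets of a gene, also those under the filter or the floor. Hsp90aa1, at 0 there, had probe sets below the floor on both arrays. The mitochondrial median was 0.0122 with quantile normalization and 0.0014 with lowess centring, with 1 of 2 below 0 in each. Among the other lists, the ER secretory median was -0.16 with median centring, 0.0033 with quantile normalization and -0.0050 with lowess centring. The ATF4 list's was -0.24 with median centring, -0.0800 with 50 added, -0.0508 without s and x probe sets and 0.0070 with the median over probe sets. It was -0.17 with quantile normalization and -0.19 with lowess centring, below the members' median in both. The cytosolic cochaperone list's was -0.13 with median centring, 0.0203 with quantile normalization, 0.0274 without s and x probe sets and 0.0762, with 14 below 0, with the median over probe sets. The mitochondrial list's was 0.0872 with median centring and 0.0903 with lowess centring. On the gene's strand alone, the amino acid response core was in 0 members in place of 2. For all of these changes the cause was not tested. Hspa5, lowest of the members as deposited, was not so with quantile normalization, lowess centring or the median over probe sets, and Xbp1 was not lowest of its class in these settings or without s and x probe sets. The dim Trib3 ranged from -0.79 to -0.15. Its -0.79 was the median over probe sets, which took in the second one, under the filter, at -1.20.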
